A study of Oryza sativa with 20 samples.

Results

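The calmodulin genes of rice were followed in leaves fed upon by the rice leaf folder *Cnaphalocrocis medinalis*. The set was chosen by gene name and identifier, with earlier results of these data known, and the study's text names CaM1-1 as a responsive gene in these libraries. It held 5 of the 92858 gene identifiers listed: OS03G0319300 (CaM1-1), OS07G0687200 (CaM1-2), OS01G0267900 (CaM1-3), OS01G0279300 (CaM3) and OS05G0577500, a label discussed with its values. Expression was measured by RNA-seq in 20 leaf libraries of Minghui 63 rice, 4 from each of 5 groups (no feeding, and feeding for 1, 6, 12 or 24 h). In the fed groups, 1 starved third-instar larva was confined in a Parafilm bag on the second leaf from the top of each 5-week-old plant for the last 1, 6, 12 or 24 h. The 0 h control leaves were bagged in the same way without a larva. Each library pools leaves from 5 plants, and all leaves were harvested together. The plants are of 1 cultivar.

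Calmodulin is a small protein that binds calcium ions through EF-hand loops. When the calcium level in the cytosol rises, as it does after wounding or chewing by an insect, calcium-loaded calmodulin changes its shape and binds target enzymes, channels and transcription factors. CaM1-1, CaM1-2 and CaM1-3 are separate genes on different chromosomes whose coding sequences give one and the same protein, and CaM3 encodes a nearly identical one. Transcript levels measure neither calcium nor the protein.

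Of the 5 genes, 4 were detected in all 20 libraries and passed the filter on low values, along with the rest of the 24058 tested identifiers. The filter required 4 or more libraries with an FPKM of 0.5 or higher. FPKM is a fragment count divided by gene length and by library depth, so that levels of different genes can be set side by side. At 0 h the 4 genes were among the most highly expressed genes of the leaf: 97.9% of the tested genes had a lower mean FPKM than CaM1-1, 97.4% than CaM3, 96.1% than CaM1-2 and 92.4% than CaM1-3. The order CaM1-1, CaM3, CaM1-2, CaM1-3 from high to low held in 19 of 20 libraries. In the remaining library, replicate 3 of 24 h, CaM1-2 was above CaM3. The values rested on 977 to 7568 fragments per gene and library in libraries of 17796577 to 22090180 fragments.

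CaM1-1 was upregulated at all 4 feeding times, CaM1-2 and CaM1-3 at 6, 12 and 24 h, and CaM3 at 6 and 24 h. Each feeding time was compared with 0 h by limma-trend on log2(FPKM + 1) in 1 fit of all 20 libraries, and a gene was called a DEG at a Benjamini-Hochberg adjusted p (FDR) under 0.05 over all 24058 tested genes, without a minimum fold change. At 1 h, 1 of the 4 tested calmodulin genes was upregulated, where 1.77% of all tested genes were upregulated and 1.29% downregulated. At 6 h it was 4 of 4, with 18.6% of all tested genes upregulated and 5.02% downregulated. At 12 h it was 3 of 4, with 5.76% of all tested genes upregulated and 8.63% downregulated. At 24 h it was 4 of 4, with 12.7% of all tested genes upregulated and 8.03% downregulated. None of the 4 genes was downregulated at any time. The median log2 fold change of the 4 genes was 0.08, 0.37, 0.33 and 0.57 at 1, 6, 12 and 24 h, and the median over all tested genes was 0.01, 0.10, -0.03 and 0.03. The 4 comparisons share the 0 h libraries.

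No log2 fold change of a calmodulin gene reached 1, so a minimum absolute log2 fold change of 1 would leave 0 calls at every time. With that minimum, 0.42%, 2.41%, 1.2% and 3.16% of all tested genes were called at 1, 6, 12 and 24 h. In whole leaves, a change in the share of cells that express a gene and a change in RNA per cell cannot be told apart.

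**Figure D1:**
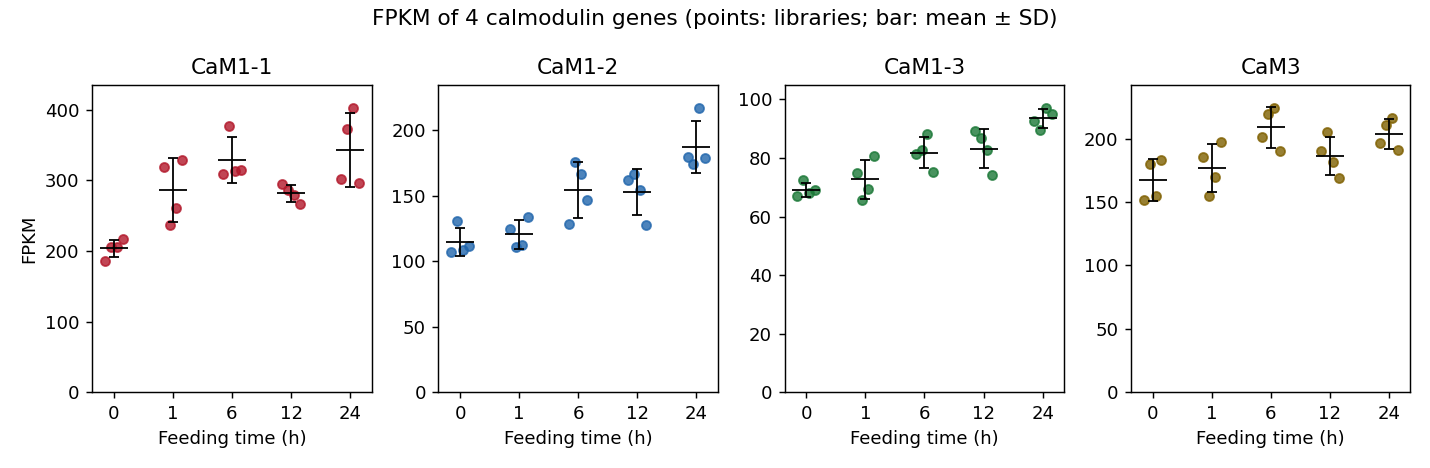
FPKM of CaM1-1, CaM1-2, CaM1-3 and CaM3 (vertical axes, from 0) by feeding time in hours (horizontal axes). Each point is a library (n = 4 per time) and the bars show the mean ± SD. For CaM1-1 all fed libraries (236.2 or more) lay above all 0 h libraries (216.2 or less), while for the other 3 genes the 1 h libraries overlapped those of 0 h.

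CaM1-1 (OS03G0319300) was the calmodulin gene with the highest FPKM, and the one that was upregulated at every feeding time. Its FPKM was 186.1, 206.2, 205.4 and 216.2 in the 4 libraries of 0 h. It was 319.1, 236.2, 261.2 and 328.6 at 1 h, and 309.1, 377.2, 312.8 and 314.7 at 6 h. All of these fed libraries were above the highest 0 h library, and the 1 h libraries fell into a lower and a higher pair. It was 294.7, 285.6, 278.9 and 265.8 at 12 h, and 301.5, 371.8, 402.6 and 296.1 at 24 h, again without overlap with 0 h. Among all tested genes, the share with all 4 libraries above all 0 h libraries was 5.91%, 21.4%, 7.84% and 14.1% at 1, 6, 12 and 24 h.

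CaM1-1 averaged 286.3 ± 44.8 FPKM at 1 h, 328.5 ± 32.6 FPKM at 6 h, 281.2 ± 12.1 FPKM at 12 h and 343.0 ± 52.6 FPKM at 24 h, against 203.5 ± 12.6 at 0 h (SD, n = 4 each). These are 1.41, 1.61, 1.38 and 1.69 times the 0 h mean. The log2 fold change was 0.48 at 1 h (SE 0.11, limma-trend FDR = 0.0234). For 6 h the value was 0.69 (limma-trend FDR = 0.000457), for 12 h 0.47 (FDR = 0.0085) and for 24 h 0.74 (limma-trend FDR = 0.000134). The two-sided exact permutation test of 4 against 4 libraries gave p = 0.029 at each time, the smallest p that this design allows. The 4 feeding times themselves could not be ordered: none of the 6 differences between them passed the test, and the log2 difference of 12 h from 6 h was -0.22 (limma-trend FDR = 0.135), or -0.03 with median-of-ratios and -0.05 with upper-quartile factors. The call at 1 h was the least firm, since it was lost when 0 h replicate 1, 2 or 3 or 1 h replicate 1 or 4 was left out (FDR 0.0577 to 0.0896) and when the 0 and 1 h libraries were fitted alone (limma-trend FDR = 0.0795).

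CaM1-2 (OS07G0687200), which encodes the same protein, did not pass the test at 1 h and had its highest mean at 24 h. Its FPKM was 107.5, 130.5, 108.7 and 111.9 at 0 h, and 124.9, 110.7, 112.6 and 134.1 at 1 h. Both groups covered nearly the same range, and 1 library of 1 h was above all of 0 h. It was 128.6, 176.2, 167.0 and 146.5 at 6 h, and 162.3, 166.5, 154.6 and 127.7 at 12 h. In each of these groups 3 of 4 libraries were above all 0 h libraries and 1 overlapped. At 24 h it was 179.5, 174.3, 217.4 and 178.6, all above every 0 h library.

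CaM1-2 averaged 120.6 ± 11 FPKM at 1 h, 154.6 ± 21.3 FPKM at 6 h, 152.8 ± 17.4 FPKM at 12 h and 187.4 ± 20.1 FPKM at 24 h, against 114.6 ± 10.7 at 0 h (SD, n = 4 each). These are 1.05, 1.35, 1.33 and 1.64 times the 0 h mean. The log2 fold change at 1 h was 0.07 (95% interval -0.15 to 0.30, limma-trend FDR = 0.8), an interval that still holds a rise of moderate size. CaM1-2 was upregulated at 6 h (log2 fold change 0.42, SE 0.11, limma-trend FDR = 0.0097). The value was 0.41 at 12 h (FDR = 0.0163) and 0.70 at 24 h (limma-trend FDR = 0.000167), both called. The two-sided exact permutation test gave p = 0.057 at 6 h and at 12 h, which is not under 0.05, and p = 0.029 at 24 h. Between feeding times it was higher at 24 h than at 1 h (log2 difference 0.63, limma-trend FDR = 0.00049), where 10.9% of all tested genes were higher. It also passed the threshold at 6 h over 1 h (0.35, FDR = 0.0346, 11.9% of all tested genes higher) and at 12 h over 1 h (0.34, limma-trend FDR = 0.0409, 5.99% of all tested genes higher), but these 2 calls were lost in 11 and 10 of 29 alternatives. Among the libraries, replicates 1, 2 and 3 of 1 h, replicates 2, 3 and 4 of 6 h and replicates 1, 2 and 3 of 12 h each decided such a call (highest FDR 0.117 and 0.107).

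CaM1-3 (OS01G0267900), the third gene for this protein, had the lowest FPKM of the 4. Its FPKM was 67.12, 72.57, 67.95 and 69.06 at 0 h, and 74.88, 65.74, 69.40 and 80.62 at 1 h. The 1 h libraries lay on both sides of the 0 h range. It was 81.29, 82.76, 88.17 and 75.25 at 6 h, and 89.29, 86.70, 82.63 and 74.14 at 12 h. At 24 h it was 92.71, 89.63, 97.18 and 94.93. From 6 h on, all libraries were above all 0 h libraries.

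CaM1-3 averaged 72.66 ± 6.50 FPKM at 1 h, 81.87 ± 5.31 FPKM at 6 h, 83.19 ± 6.63 FPKM at 12 h and 93.61 ± 3.22 FPKM at 24 h, against 69.18 ± 2.40 at 0 h (SD, n = 4 each). The 24 h mean was 1.35 times the 0 h mean. The log2 fold change at 1 h was 0.07 (95% interval -0.08 to 0.21, limma-trend FDR = 0.685). CaM1-3 was upregulated at 6 h (0.24, FDR = 0.0167) and 12 h (0.26, limma-trend FDR = 0.0148). It was most clearly so at 24 h, where the log2 fold change was 0.43 (SE 0.07, limma-trend FDR = 0.000206). It was higher at 24 h than at 1 h (log2 difference 0.37, limma-trend FDR = 0.000987). It was also higher at 24 h than at 6 h (0.19, limma-trend FDR = 0.0453, 8.11% of all tested genes higher), a call that was lost in 15 of 29 alternatives. In 12 of these a single library was left out (highest FDR 0.141).

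CaM3 (OS01G0279300) encodes a calmodulin that differs slightly from the CaM1 protein, and it had the lowest log2 fold change of the 4 genes at 24 h. Its FPKM was 151.6, 180.2, 154.4 and 183.0 at 0 h, and 185.5, 154.3, 169.9 and 197.3 at 1 h, with a wide overlap. It was 201.0, 219.7, 224.3 and 190.3 at 6 h, all above 0 h. At 12 h it was 189.9, 205.2, 181.4 and 169.0, of which 2 libraries were within the 0 h range. At 24 h it was 196.6, 210.4, 216.1 and 191.0, again all above 0 h.

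CaM3 averaged 176.7 ± 18.7 FPKM at 1 h, 208.8 ± 15.9 FPKM at 6 h, 186.4 ± 15.2 FPKM at 12 h and 203.5 ± 11.7 FPKM at 24 h, against 167.3 ± 16.6 at 0 h (SD, n = 4 each). It was upregulated at 6 h (log2 fold change 0.32, SE 0.09, limma-trend FDR = 0.0131) and at 24 h (0.29, limma-trend FDR = 0.0257). At 1 h (0.08, 95% interval -0.10 to 0.26, FDR = 0.718) and at 12 h (0.16, 95% interval -0.03 to 0.34, limma-trend FDR = 0.257) it did not pass the test. No difference between feeding times passed the test for CaM3. The call at 24 h was lost when any of 4 libraries was left out: 0 h replicate 1, 0 h replicate 3, 24 h replicate 2 or 24 h replicate 3 (highest FDR 0.0893).

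**Figure D2:**
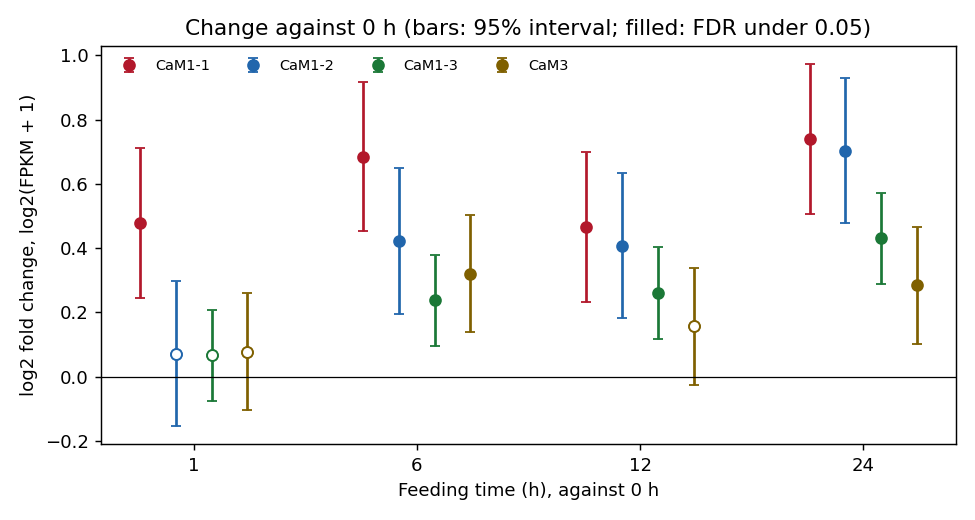
Log2 fold change against 0 h (vertical axis, log2(FPKM + 1) scale) of the 4 calmodulin genes by feeding time in hours (horizontal axis). Points are estimates of the fit of all 20 libraries, bars are 95% intervals and filled points have an FDR under 0.05. At 1 h the estimate was 0.48 for CaM1-1 and 0.07 to 0.08 for the other 3 genes. The 1 h interval of CaM1-1 (0.246 to 0.712) overlapped those of CaM1-2 and CaM3 but not that of CaM1-3 (-0.076 to 0.208). At 24 h the estimate was 0.74 for CaM1-1, 0.70 for CaM1-2, 0.43 for CaM1-3 and 0.29 for CaM3.

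The scale of the 6 h libraries bears on the smaller of these changes. At 6 h the median of all tested genes was 0.10 above 0 h on the log2 scale, and relative to this shift CaM1-1 was 0.58, CaM1-2 0.32, CaM3 0.22 and CaM1-3 0.13 above 0 h. With FPKM divided by median-of-ratios factors, 2 of the 4 genes were called at 6 h. CaM1-1 (log2 fold change 0.55) and CaM1-2 (0.28) were then called, CaM3 (0.18, limma-trend FDR = 0.0629) and CaM1-3 (0.10, FDR = 0.191) were not, and 2470 genes were upregulated and 2490 downregulated over the whole table, against 4481 and 1208 without the factors. At 12 h the same factors added CaM3 to the called genes (0.20, limma-trend FDR = 0.0495). Without the factors, no calmodulin gene was called between 12 and 6 h, where 35.4% of all tested genes differed in either direction, or between 24 and 12 h, where 2.75% did. With them CaM1-3 was higher at 12 h than at 6 h, by 0.21 with median-of-ratios factors (limma-trend FDR = 0.00646) and by 0.19 with upper-quartile factors (FDR = 0.0115), against 0.02 without factors. The scaling likewise added CaM1-2 at 24 h over 6 h (0.38, limma-trend FDR = 0.00357 with median-of-ratios factors) and CaM1-3 at 12 h over 1 h (0.25, FDR = 0.00384). It removed CaM1-2 at 6 h over 1 h (limma-trend FDR = 0.109 with median-of-ratios and 0.0613 with upper-quartile factors). CaM1-3 at 24 h over 6 h stayed called (0.29, limma-trend FDR = 0.000492 with median-of-ratios factors).

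Because the 3 CaM1 genes give the same protein, their FPKM were added up for each library. The sum averaged 479.5 ± 61.7 FPKM at 1 h, 564.9 ± 51.6 FPKM at 6 h, 517.2 ± 35.4 FPKM at 12 h and 624.0 ± 69.0 FPKM at 24 h, against 387.3 ± 20.9 at 0 h (SD, n = 4 each). These are 1.24, 1.46, 1.34 and 1.61 times the 0 h mean. The lowest fed library (412.6, 1 h replicate 2) was above the highest 0 h library (409.3, replicate 2) by a small margin. The sum is a description and was not tested.

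CaM1-1 supplied more of the sum than CaM1-2 and CaM1-3 together in every library (50.4% or more). It made up 59.5% ± 1.9 of the summed FPKM at 1 h, 58.2% ± 2.1 at 6 h, 54.4% ± 1.7 at 12 h, and by 24 h 54.8% ± 3.1, against 52.6% ± 1.9 at 0 h (SD, n = 4 each). The 4 libraries of 1 h ranged 57.2% to 61.5% and those of 0 h 50.4% to 54.4%, without overlap, while at 24 h (52.0% to 58.5%) the range overlapped that of 0 h. CaM1-2 made up 25.3% at 1 h and 30.1% at 24 h, against 29.6% at 0 h. CaM1-3 made up 15.2% at 1 h and 15.2% at 24 h, against 17.9% at 0 h. The authors counted uniquely mapped reads, so reads shared between the 3 genes could alter these shares. The size of such an effect was not tested.

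**Figure D3:**
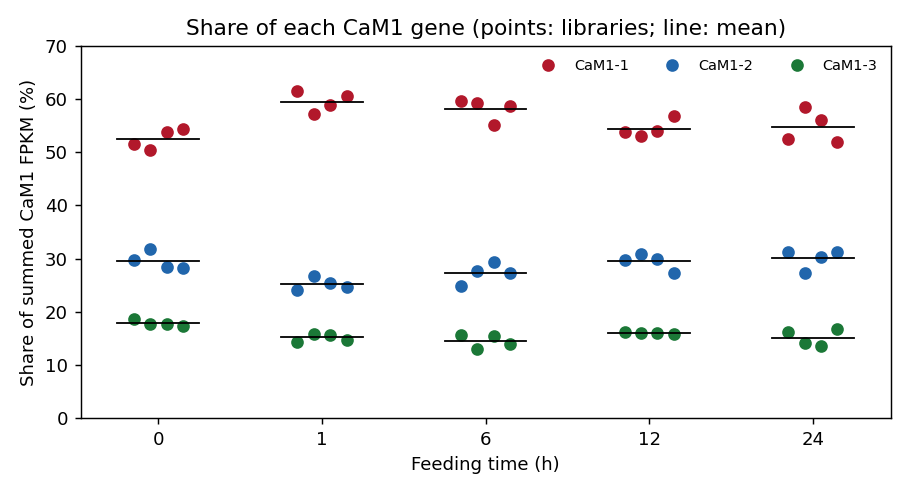
Share of each CaM1 gene in the summed FPKM of CaM1-1, CaM1-2 and CaM1-3 (vertical axis, percent) by feeding time in hours (horizontal axis). Points are libraries (n = 4 per time) and lines are means. The mean share of CaM1-1 was 59.5% at 1 h and 54.8% at 24 h, against 52.6% at 0 h.

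To compare the genes with one another, the log2 ratio of 2 genes within a library, which does not depend on the scaling between libraries, was tested for the 6 pairs at 4 times (24 exact permutation tests, two-sided). In 11 of the 24 tests the p was 0.029, the smallest possible, and after Benjamini-Hochberg adjustment over the 24 tests none was under 0.05 (lowest adjusted p = 0.062). The adjusted p of a pair at this smallest p depends on how many of the 24 tests reach it, however large the change of that pair. With 11 such tests it was 0.062. The adjusted test therefore cannot decide on a single pair. The ratio of CaM1-1 to CaM3 was above all 0 h libraries in 4 of 4 libraries at every time. Its log2 value was 0.69 ± 0.08 at 1 h, 0.65 ± 0.13 for 6 h, 0.60 ± 0.08 for 12 h and 0.74 ± 0.14 for 24 h, against 0.29 ± 0.09 at 0 h (SD, n = 4 each; exact permutation p = 0.029, adjusted p = 0.062 at each time).

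The ratio of CaM1-1 to CaM1-2 was 1.24 ± 0.11 on the log2 scale at 1 h and 0.87 ± 0.17 at 24 h, against 0.83 ± 0.13 at 0 h (SD, n = 4 each). It was higher by 0.41 at 1 h in 4 of 4 libraries (exact permutation p = 0.029, adjusted p = 0.062) and by 0.04 at 24 h (exact permutation p = 0.77). The ratio of CaM1-1 to CaM1-3 was above 0 h by 0.41 at 1 h, 0.45 at 6 h and 0.21 at 12 h, each in 4 of 4 libraries (exact permutation p = 0.029, adjusted p = 0.062). At 24 h the difference was 0.31, with 3 of 4 libraries above all of 0 h (exact permutation p = 0.057, adjusted p = 0.11). CaM1-2 gained on CaM1-3 by 0.27 and on CaM3 by 0.42 at 24 h, each in 4 of 4 libraries (exact permutation p = 0.029, adjusted p = 0.062). The ratio of CaM1-3 to CaM3 differed from 0 h by -0.08 to 0.15, with an exact permutation p of 0.11 or more at all 4 times.

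Across the 20 libraries, CaM1-2 and CaM1-3 had the highest correlation of the 6 pairs. Pearson's correlation of their log2(FPKM + 1) was 0.946 (Spearman's 0.955, n = 20 libraries), and each was the tested gene with the highest correlation with the other. With the time means removed their correlation was 0.765, below that of CaM1-3 and CaM3 (0.794), and after division by median-of-ratios factors it was 0.908. CaM1-1 was less close to CaM1-2 (0.777) and CaM1-3 (0.755) than to CaM3 (0.83). These correlations are descriptions. Both genes of a pair are read from the same libraries, and libraries of a time point share their treatment. The genes share long stretches of coding sequence, so that reads of one gene could be counted to another. The authors used uniquely mapped reads. The part of such sharing in the correlations, and in the order of the genes by FPKM, was not tested. Whether counting used strand is not given in the sources used here.

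**Figure D4:**
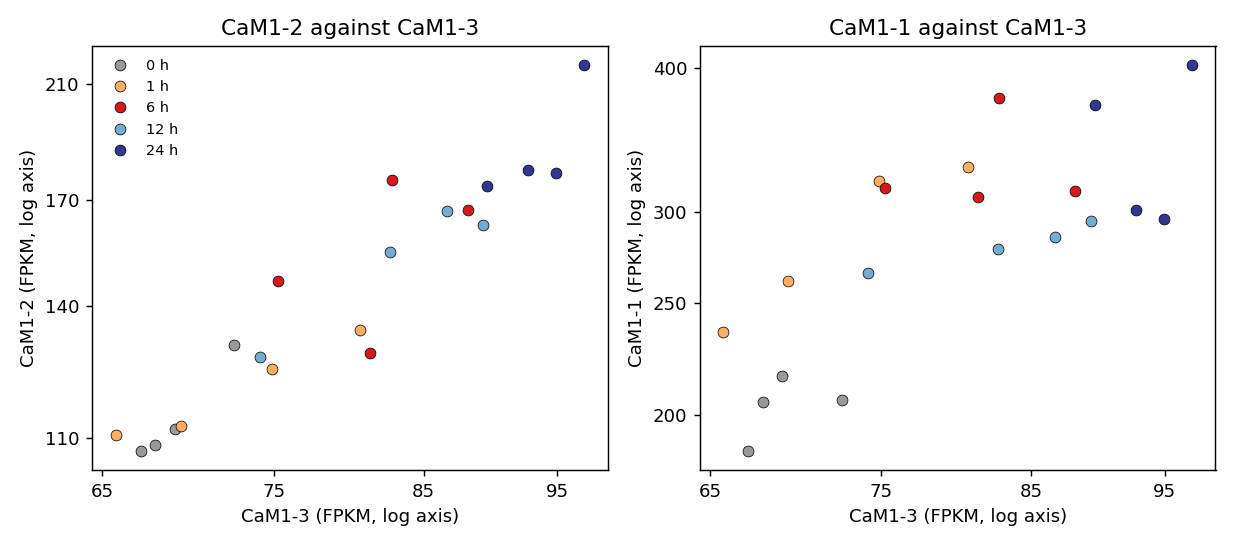
FPKM of CaM1-2 (left, vertical axis) and CaM1-1 (right, vertical axis) against FPKM of CaM1-3 (horizontal axes), with logarithmic axes. Each point is 1 of 20 libraries, coloured by feeding time. CaM1-2 and CaM1-3 lie close to a line (Pearson's correlation 0.946), whereas the points of CaM1-1 against CaM1-3 scatter more widely (0.755).

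Replicates of a time point tended to be high or low in all 4 genes together. In 14 of 20 libraries the 4 genes were on the same side of their time mean, 7 above and 7 below. Replicate 4 of 12 h, for example, was low in all 4 genes (log2 deviations -0.08 for CaM1-1, -0.25 for CaM1-2, -0.16 for CaM1-3 and -0.14 for CaM3), and it also had the lowest median over all tested genes, -0.09 relative to the 0 h mean. Replicate 1 of 24 h was also low in all 4 genes (-0.17, -0.06, -0.01 and -0.05 in the same order), but it had the highest median of the 24 h libraries (0.04). The part of library scale in these joint deviations was not tested.

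By Pearson's correlation, the genes with a pattern most like that of CaM1-1 were OS02G0720700 (Pearson's correlation 0.932, Spearman's 0.901) and OS02G0713400 (0.931 and 0.946) over the 20 libraries. By Spearman's correlation OS02G0713400 ranked 1 and OS02G0720700 ranked 26 among the tested genes. Neither identifier is annotated in the tables used here. OS02G0720700 averaged 7.88, 8.88, 7.41 and 8.72 FPKM at 1, 6, 12 and 24 h, against 5.50 FPKM at 0 h. OS02G0713400 averaged 60.3, 66.2, 59.4 and 64.95 FPKM at these times, against 50.6 at 0 h. Both had their highest mean at 6 h and CaM1-1 at 24 h, but the means of these 2 times lay within the spread of the libraries. OS02G0720700 had 8.88 ± 1.47 FPKM at 6 h and 8.72 ± 1.59 FPKM at 24 h (SD, n = 4 each). OS02G0713400 had 66.2 ± 3.03 and 64.95 ± 4.59 FPKM. For CaM1-1 the difference of 24 h from 6 h did not pass the test (limma-trend FDR = 0.768).

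The fifth identifier, OS05G0577500, was barely detected. It had 0 to 9 fragments per library, 59 in all 20 libraries, and was listed at 0 in 3 of them. Its fragments summed over the 4 libraries were 7 at 1 h (95% exact Poisson interval 2.81 to 14.4), 16 at 6 h (9.15 to 26), 5 at 12 h (1.62 to 11.7) and 22 at 24 h (13.8 to 33.3), against 9 at 0 h (4.12 to 17.1). These intervals cover counting error only and overlap between each feeding time and 0 h. Exact permutation tests of its FPKM gave p = 0.91, 0.26, 0.71 and 0.17 at 1, 6, 12 and 24 h (n = 4 each), and without the filter on low values its limma-trend FDR at 24 h was 0.122. No change in OS05G0577500 was called, and the size of change that could have been called was not tested. The name CaM2 that came with it was not borne out by position. The RefSeq entry named CAM2 lies behind 71.0% of the genes of chromosome 5 (assembly ASM3414082v1), and OS05G0577500 behind 94.5% of the chromosome 5 identifiers. The corresponding shares were 25.2% and 24.6% for CaM1-3 and 26.8% and 26.2% for CaM3, both on chromosome 1. OS05G0577500 is therefore given by its identifier here, and no value is reported for CaM2.

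Calcium-dependent protein kinases (CDPKs) sense calcium through calmodulin-like domains of their own and pass the signal on by phosphorylation. The study's text names 3 genes as CDPKs that responded in these same libraries as early as 1 h. Their direction is therefore no independent evidence. Their class is given as in the study's text and was not checked here, so the description of the domains may not hold for each. All 3 had far lower FPKM than the calmodulin genes. At 1 h none of the 3 passed the test, although Os12g0113500 did in 5 of 29 alternatives, Os08g0540400 in 4 and Os08g0441100 in 2. For Os12g0113500 and Os08g0540400 these included limma-voom on recovered fragments. The pseudocount of 1 used here understates changes of low genes, but with a pseudocount of 0.1 none of the 3 was called at 1 h either. The study tested with DESeq2, an unlike test. The absence of a 1 h call is therefore no test of the study's statement.

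Os08g0441100 averaged 7.51 ± 1.64 FPKM at 1 h, 8.41 ± 2.35 FPKM at 6 h, 7.63 ± 1.69 FPKM at 12 h and 8.50 ± 2.95 FPKM at 24 h, against 4.17 ± 0.33 at 0 h (SD, n = 4 each). It was upregulated at 6 h (log2 fold change 0.83, limma-trend FDR = 0.0125), 12 h (0.72, FDR = 0.037) and 24 h (0.82, FDR = 0.0138), and at 1 h its log2 fold change was 0.70 (limma-trend FDR = 0.0999), with all 4 libraries above all of 0 h. Os08g0540400 averaged 2.46 ± 0.50 FPKM at 1 h, 2.67 ± 0.77 FPKM at 6 h, 1.19 ± 0.63 FPKM at 12 h and 1.503 ± 0.230 FPKM at 24 h, against 1.26 ± 0.32 at 0 h (SD, n = 4 each). Of the 4 feeding times, it passed the test at 6 h only (0.69, limma-trend FDR = 0.00962). Its log2 fold change at 1 h was 0.62 (limma-trend FDR = 0.0668), also with all 4 libraries above all of 0 h. Os12g0113500 had 0.828 ± 0.198 FPKM at 1 h, 1.501 ± 0.275 FPKM at 6 h, 0.875 ± 0.361 FPKM at 12 h and 0.867 ± 0.226 FPKM at 24 h, against 1.60 ± 0.31 at 0 h (SD, n = 4 each). It was downregulated at 12 h (log2 fold change -0.48, limma-trend FDR = 0.0291) and 24 h (-0.48, FDR = 0.0226). At 1 h its log2 fold change was -0.50 (limma-trend FDR = 0.062), with all 4 libraries below all of 0 h. Single libraries decided some of these calls. Leaving out 0 h replicate 2, 3 or 4, or replicate 1, 2 or 3 of 12 h, removed the 12 h call of Os12g0113500 (highest FDR 0.098). Its 24 h call was removed by leaving out 0 h replicate 3 or replicate 4 of 24 h (limma-trend FDR up to 0.077). That of Os08g0441100 at 12 h was lost without any one of the 0 h replicates or 12 h replicate 3 or 4 (highest FDR 0.105), and at 24 h without 24 h replicate 3 (limma-trend FDR = 0.0565).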

How the data were processed

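Total RNA of 20 rice leaf samples was sequenced as paired-end libraries. According to the methods of the study, the authors aligned filtered reads to IRGSP-1.0 with HISAT2 2.09, counted uniquely mapped reads with featureCounts 1.5.0-p3 and converted the counts to FPKM. FPKM of 92858 identifiers were deposited, without counts. No additional scaling between libraries is described for them.

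Whole fragments were recovered from FPKM, within 0.01 fragments, for 35755 of 35755 identifiers above 0. They were used for depth, for Poisson intervals (counting error only) and for a limma-voom alternative. The main test was limma-trend (limma 3.58.1, R 4.3.3) on log2(FPKM + 1), with a pseudocount of 1, which understates changes of low genes. One fit of all 20 libraries (15 residual degrees of freedom) covered the 24058 identifiers whose FPKM was 0.5 or higher in 4 or more libraries. DEGs had a Benjamini-Hochberg FDR under 0.05. The test was checked on simulated data with 200 changed genes. Exact permutation tests, ratios and correlations used Python 3.11.15, numpy 2.4.6, pandas 2.3.3 and scipy 1.17.1. Ratios covered the 4 genes above 0 in all libraries.

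Replicate libraries came from separate plants according to the methods of the study. Groups came from the sample labels. The genes named were the 5 members, 3 CDPK genes identified in the study's text, and the 2 tested genes with the highest Pearson correlation with CaM1-1. Members and lists were chosen with earlier results of these data known. Gene names were not in the values. The RefSeq table used here (ASM3414082v1) shares no identifiers with them, so neither leaf markers nor further calcium sensors were looked up, and sequences were not analysed here.

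As alternatives, single libraries were left out, the replicate number was added as a block, and the 2 time points compared were fitted alone. Median-of-ratios factors, upper-quartile factors, limma-voom on recovered fragments, a pseudocount of 0.1, a minimum absolute log2 fold change of 1, no filter and a filter of 10 fragments per library were also tried. For ratios a pseudocount of 1 and omission of each library were tried, and for correlations Spearman's coefficient and median-of-ratios factors.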

Additional observations from a re-analysis of the deposited data

Results flagged for a closer look

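In the 40 groups of 4 libraries examined (8 named genes at 5 times), 3 held a library that stood far from the other 3, by Dixon's test at the 95% level. Chance alone gives about 1 such group in 20. CaM1-1 had 377.2 FPKM in replicate 2 of 6 h, against 309.1 to 314.7 in the other 3 libraries, and its call at 6 h held when any library was left out (highest FDR 0.00268). CaM1-2 had 217.4 FPKM in replicate 3 of 24 h, against 174.3 to 179.5 in the other 3, and its call at 24 h likewise held (highest FDR 0.000966). This was also the one library in which CaM1-2 was above CaM3. The CDPK gene Os08g0540400 had 2.128 FPKM in replicate 3 of 12 h, against 0.7724 to 0.9503 in the other 3.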

How the results depend on the processing

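No direction reversed among the called changes. Of the 4 tested calmodulin genes, 1, 4, 3 and 4 were called at 1, 6, 12 and 24 h, and 5 of 24 differences between feeding times were called. An absolute log2 fold change over 1 left 0 calls in each of these 5 counts (0.42% to 3.16% of all tested genes by comparison). Without that minimum, 15.9% of all tested genes were called between 6 and 1 h, 16.3% between 12 and 1 h and 18.9% between 24 and 1 h. Between 12 and 6 h it was 35.4%, between 24 and 6 h 24.4% and between 24 and 12 h 2.75%. The count of differences between feeding times is therefore not read as a trait of the calmodulin genes. With the 2 time points alone, 0 genes were called at 1 h, where 1.9% of all tested genes were. In these fits 3 differences between feeding times were called (0.623% to 30.1% of all tested genes by comparison). Median-of-ratios and upper-quartile factors each left 2 genes at 6 h (20.6% and 20.5% of all tested genes). Each gave 7 differences between feeding times (2.35% to 28.2% of all tested genes by comparison). These included 3 that were not called without factors, CaM1-2 at 24 over 6 h and CaM1-3 at 12 over 1 h and 12 over 6 h. The call of CaM1-2 at 6 over 1 h was lost with either. Without the filter on low values, 2 differences between feeding times were called (1.25% to 22.7% of all tested genes by comparison).

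With single libraries left out, the number of calls ranged 0 to 1 at 1 h and 2 to 4 at 6 h. It was 3 to 3 at 12 h, 3 to 4 at 24 h and 2 to 8 between feeding times. Of all tested genes, 1.61% to 3.93% were then called at 1 h and 15.3% to 25.4% at 6 h. The shares were 10.1% to 15.3% at 12 h, 15.4% to 22.1% at 24 h and 0.89% to 36.4% between feeding times by comparison. At 6 h CaM1-3 was lost without 0 h replicate 1 or 6 h replicate 3 (highest FDR 0.058), and CaM3 without 0 h replicate 1 (limma-trend FDR = 0.0516). The replicate numbers share only a number: in 16 comparisons of same-numbered libraries, deviations correlated at -0.165 to 0.179, 2 of them over 0.1, and 4 of 16 libraries matched their own number best. With the replicate number as a block, 3 differences between feeding times were called (3.03% to 34.4% of all tested genes by comparison). The counts against 0 h were then 1, 4, 3 and 4, with 2.83%, 22.7%, 13.7% and 20% of all tested genes called. None of the 24 ratio tests passed an adjusted p of 0.05 with a pseudocount of 1 either, while 11 of the ratios without it had an unadjusted p under 0.05 (exact permutation). Leaving out a library makes p under 0.05 unreachable for the ratios, so those values carry no test. The cause of the lost calls was not tested. OS05G0577500 rested on 59 fragments in all.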
